A study of Mus musculus with 6 samples.

Results

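Heat shock proteins and their J-domain partners were described in inguinal white adipose tissue, a subcutaneous fat depot in which heat-producing beige adipocytes can form. The genes were taken by symbol: every gene named Dnaja, Dnajb, Dnajc, Hspa or Hspb with a number, together with Hspd1, Hspe1, Hsph1, Hsp90aa1, Hsp90ab1, Hsf1, Hsf2, Bag3, Cryab, Chordc1, Stip1 and Fkbp4, and without Hspa5. This gave 71 of the 13490 genes in the authors' deposited table. In the RefSeq annotation 77 protein-coding genes meet the same rule, and the other 6 (Dnajb7, Dnajb8, Dnajc5b, Dnajc5g, Dnajc6 and Hspb9) were not analysed here. The tissue came from 6 male wild-type C57BL/6J mice aged 15 weeks, of which 3 drank distilled water (dH2O) and 3 drank water with sodium arsenite at 300 ppb (a salt of trivalent arsenic) for 9 weeks. RNA sequencing gave 1 value per group and gene, the mean over its 3 mice of a count-like abundance. All values below are the authors' group means and so carry no SD, and the spread between mice could not be examined.

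Chaperones bind unfolded or partly folded proteins and help them fold, assemble, cross membranes or be degraded. HSP70 proteins do this in cycles of ATP hydrolysis that J-domain proteins start and nucleotide exchange factors end. HSP90 acts later on selected clients with its own cofactors, small heat shock proteins hold unfolding proteins without ATP, and the HSP60 and HSP10 chaperonin folds proteins inside mitochondria. Trivalent arsenic reacts with protein thiols and is a classical inducer, in cultured cells, of the heat shock response, in which the transcription factor HSF1 binds heat shock elements and switches on HSP70 and other chaperone genes.

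No member was called changed. A call was a posterior probability of equal expression (PPEE) of at most 0.05 in the authors' deposited table, where calls took in 0.734% of all genes (0.385% higher and 0.348% lower under arsenite), so 0 of 71 is close to the background. In the authors' deposited table the smallest PPEE values of members were 0.583 for Dnajc22, 0.601 for Hspa12b and 0.796 for Dnajc5, and the other 68 members lay above 0.9, as did 95.0% of all genes. The authors' deposited log2 ratios of arsenite over water were below 0 for 49 members and above 0 for 22, against 54.5% below 0 over all genes. With both groups scaled to the same total, 34 of 71 members were below 0, against 33.8% of all genes. Counts below 0 under that scaling are to be read beside this lower share. The median over members was -0.13 in the authors' deposited table, against -0.03 over all genes; with both groups scaled to the same total it was 0.02, against 0.12 over all genes. That scaling moved the median of all genes by 0.16, and relative to all genes the members' median was -0.10 both as deposited and after it. Sizes were small, with a median absolute log2 ratio of 0.18 over members and 0.21 over all genes. A log2 ratio of at most -0.5 was found in 8 members (8.22% of all genes) and one of at least 0.5 in 4 (7.07% of all genes).

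**Figure D1:**
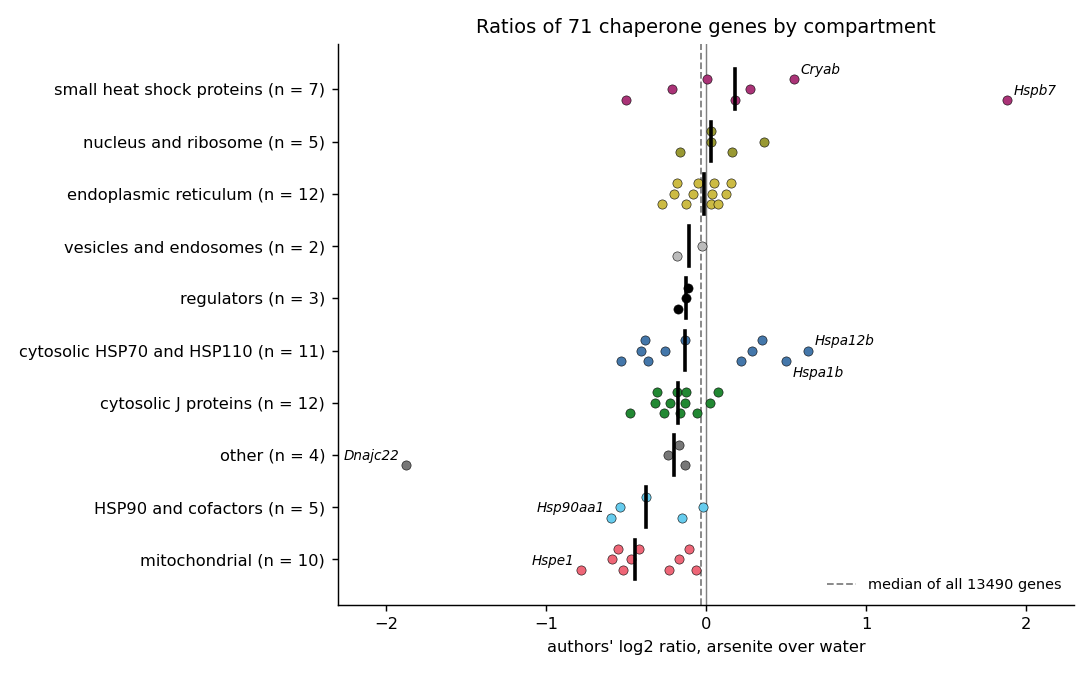
Log2 ratio of arsenite over water (horizontal axis) of the 71 genes, grouped by where their products act; each point is a gene, black bars are medians and the dashed line is the median of all genes. The mitochondrial genes all lie below 0 as deposited (8 of 10 with both groups scaled to the same total, 7 of 10 after removal of the length trend), and the small heat shock proteins hold the highest ratio, that of Hspb7.

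The regulators of the response were nearly level between the groups. Hsf1, the main stress-activated heat shock factor, had means of 165 under water and 146 under arsenite, and Hsf2, a related factor that can pair with it, had 202 and 185. Bag3, a co-chaperone and HSF1 target that links HSP70 to small heat shock proteins and autophagy, had 636 and 587. The arsenite mean was the lower of the pair for all 3 genes, by 1.13-, 1.09- and 1.08-fold, and only Hsf1 kept that direction when both groups were scaled to the same total. HSF1 itself is activated after translation, so its transcript level does not measure its activity.

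The strongly inducible HSP70 genes were weakly expressed in both groups. Hspa1a and Hspa1b, which encode nearly the same stress-induced HSP70 protein, had means of 30.2 and 43.0 under water and 35.2 and 61.1 under arsenite, 1.17- and 1.42-fold higher. Per kilobase of gene length, Hspa1b stood at 15.3 under water and 21.7 under arsenite, whereas Hspa8, the constitutive HSP70 of the cytosol, stood at 7602 and 5838. Hspa8 was thus 497 times as abundant as Hspa1b per kilobase under water and 269 times under arsenite. Hspa1a and Hspa1b lie 10120 bases apart on chromosome 17, in the major histocompatibility region, and 60.4% and 62.3% of their 50-base stretches occur in transcripts of other genes, mainly of each other. Their values are therefore uncertain as those of separate genes. The neighbouring Hspa1l, a testis-type HSP70, had means of 70.7 and 48.8.

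Hspa8 had means of 15995 under water and 12282 under arsenite, the highest of all members, and was 1.30-fold lower. Other genes share 38.6% of its 50-base stretches. Hsph1, an HSP110 that recharges HSP70 with ATP and also prevents aggregation, had 503 and 391. Its relatives Hspa4 and Hspa4l, also of the HSP110 branch, had 1940 and 1627 and 202 and 152. Of the HSP70 and HSP110 genes of the cytosol 6 of 11 were below 0 (54.5%), the same share as over all genes. In the authors' deposited table their median log2 ratio was -0.13. With both groups scaled to the same total it was 0.03, against 0.12 over all genes.

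The highest ratio of this class belonged to Hspa12b, a divergent HSP70 relative known for its expression in endothelium. Hspa12b (chromosome 2, 131127412 to 131145985, GRCm38) had means of 288 and 448, 1.56-fold higher under arsenite, and its PPEE in the authors' deposited table was 0.601. Beside it, 7 of 8 endothelial markers had higher means under arsenite, among them Pecam1 at 644 and 1025 and Cdh5 at 559 and 1085, and none was called. Their summed means were 2795 under water and 4720 under arsenite, 0.032% and 0.061% of all summed means. The part of endothelial transcripts in the Hspa12b value was not tested, and in bulk tissue the number of cells of a type and their RNA per cell cannot be told apart. Hspa12a, its paralogue, had 774 and 944, and Hspa2, another HSP70 with a role in spermatogenesis, 50.7 and 64.7.

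The pair of cytosolic HSP90 genes differed from each other. Hsp90aa1, the stress-inducible form, had means of 6221 under water and 4122 under arsenite, 1.51-fold lower. Hsp90ab1, the constitutive form, had 6027 and 5950. Per kilobase the Hsp90aa1 level was 0.908 of that of Hsp90ab1 under water and 0.609 under arsenite. That change in their ratio, a difference of -0.58 between their log2 ratios, does not depend on how the groups are scaled to a common total. Other genes share 47.5% of the 50-base stretches of Hsp90aa1 and 3.44% of those of Hsp90ab1, so the Hsp90aa1 value is the less certain. Chordc1, a zinc-binding HSP90 partner also called morgana, had 805 and 555, 1.45-fold lower, and its PPEE in the authors' deposited table was 0.924. Fkbp4, an immunophilin that serves steroid receptors, had 840 and 649, and Stip1, the adaptor that passes clients from HSP70 to HSP90, had 709 and 639. All 5 genes of this class were below 0, with a median of -0.37 in the authors' deposited table. With both groups scaled to the same total 3 of 5 were below 0, against 33.8% of all genes. The median was then -0.22, against 0.12 over all genes.

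J-domain proteins choose the place and the client of HSP70. There were 40 of them, and 28 had ratios below 0, with a median of -0.13 in the authors' deposited table. With both groups scaled to the same total the median was 0.03, against 0.12 over all genes. Class A genes, which keep the full domain order of bacterial DnaJ, were all below 0 (4 of 4; 3 of 4 with both groups scaled to the same total), with a median of -0.37 in the authors' deposited table. The 11 class B genes had a median of -0.16 and the 25 class C genes, which share little beyond the J domain, a median of -0.08 in the authors' deposited table. The class C median was 0.07 with both groups scaled to the same total, against 0.12 over all genes.

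Among the cytosolic J proteins, Dnaja1, a farnesylated partner of HSP70, had the highest mean and the lowest ratio, at 3086 under water and 2221 under arsenite. Dnajb1, the main stress-inducible J protein and a sensitive HSF1 target, had 333 and 338, 1.02-fold higher. Dnajc12, a partner of the aromatic amino acid hydroxylases, had the highest ratio at 44.4 and 46.8. Of the 12 genes 10 were below 0, with a median of -0.17 in the authors' deposited table. When both groups were scaled to the same total, 7 were below 0 with a median of -0.02. Over all genes that scaling gave 33.8% below 0 and a median of 0.12.

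**Figure D2:**
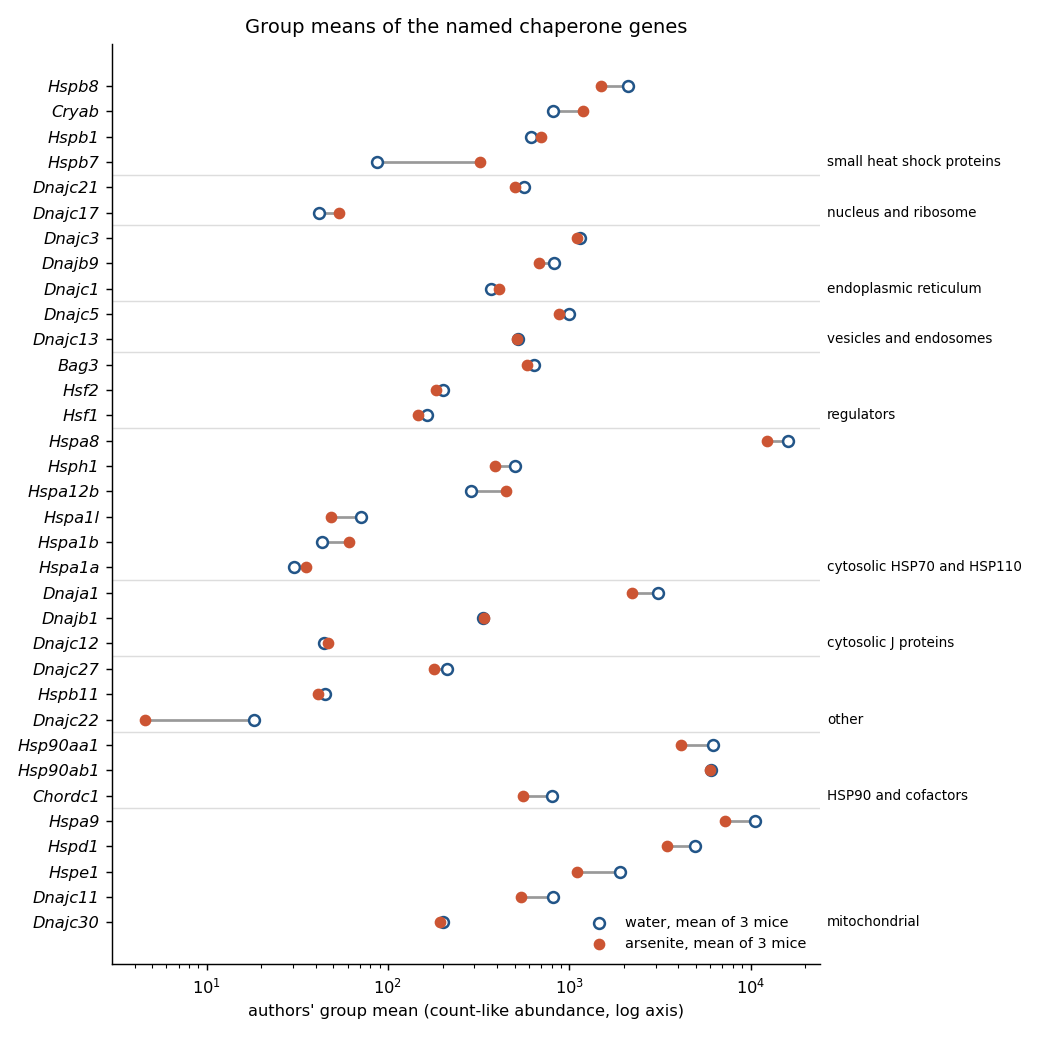
Authors' group means on a log axis (horizontal) for the 34 genes named by rule, open circles for water and filled circles for arsenite, each the mean of 3 mice, joined by a line. Hspb7 (86.5 and 320) and Dnajc22 (18.2 and 4.55) show the widest gaps, and Dnajb1, Hsp90ab1 and Dnajc13 nearly coincide.

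The mitochondrial chaperones had the lowest median of the classes in the deposited scaling and in the other 3 scalings, though not after removal of the length trend, where HSP90 and its cofactors lay lower (-0.34 against -0.31). Hspe1, the HSP10 lid of the mitochondrial chaperonin, had means of 1906 under water and 1107 under arsenite, 1.72-fold lower. Hspd1, the HSP60 chamber, had 4959 and 3457, 1.43-fold lower. Hspa9, mortalin, the HSP70 of the matrix that also pulls imported proteins inward, had 10532 and 7185, 1.47-fold lower. Its matrix J protein Dnaja3 had 1292 and 933, 1.38-fold lower. Dnajc11, found with the cristae-organizing MICOS complex, had 814 and 541. Dnajc15 and Dnajc19, J proteins of the inner membrane, had 1368 and 1022 and 372 and 316.

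The remaining 3 genes of the class were closer to level, with Dnajc30, a J protein tied to respiratory complex I repair, at 202 and 193. All 10 mitochondrial genes were below 0, with a median of -0.45 in the authors' deposited table (-0.41 relative to all genes). The median stayed below 0 in each of the 3 other scalings and after removal of the length trend, between -0.39 and -0.29, with 8 of 10 below 0 when both groups were scaled to the same total and 7 of 10 after removal of the length trend. Together the 10 genes made up 0.253% of all summed means under water and 0.196% under arsenite, shares that a common factor between groups cannot change.

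These values moved beside those of mitochondrial genes in general. Of 445 genes that the deposited gene ontology terms place in mitochondria, 346 (77.8%) were below 0, and the median log2 ratio in the authors' deposited table was -0.32, with 2 called. With both groups scaled to the same total, 286 were below 0 and the median was -0.16, against 0.12 over all genes. The 445 genes include 7 members, and only 4 of the 10 genes of the class above carry such a term. Beige adipocytes are rich in mitochondria, and 7 of 8 beige and brown markers had lower means under arsenite, with summed means of 55776 and 23355 and none called. Ucp1, the uncoupling protein that releases heat, had 37406 and 15854, and the markers Cidea and Dio2 had 6787 and 2372 and 3332 and 1035. Adrb3 was the exception at 1074 and 1244, and Prdm16 was nearly level at 174 and 162. With both groups scaled to the same total 6 of the 8 markers were below 0. The part of these in the chaperone values was not tested. General adipocyte markers did not share this: 5 of 7 had higher means under arsenite, with summed means of 303662 and 310218, and the defining markers Adipoq and Fabp4 were abundant in both groups (17520 and 20333, and 223241 and 218556).

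Hspd1 and Hspe1 are transcribed in opposite directions from a common promoter on chromosome 1. This promoter and those of 3 other members carry clean copies of the heat shock element, the site that HSF1 binds, made of inverted repeats of GAA. Searched for were GAANNTTCNNGAA and TTCNNGAANNTTC, each with 3 units, on both strands, in RefSeq windows (GRCm38.p6) from 250 bases before to 50 bases after each annotated start. Windows were matched for 56 of 71 members. A match was found in 5 of those 56 (8.93%): Hspd1, Hspe1, Hsph1, Chordc1 and Dnajb6, against 0.662% of 27025 genes with a window. Those 27025 genes are not limited to the 13490 of the deposited table, and the share among the latter was not computed. The shorter forms of 2 units, GAANNTTC and TTCNNGAA, which every longer match contains, occurred in 32.1% of members and 17.0% of all genes with a window.

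The window of Hspe1 and that of Chordc1 are shown because they hold the longest runs of units among members, with the unbroken run of units in capitals. The Hspe1 window is chr1:55087898-55088197 on the plus strand, and the Chordc1 window is chr9:18292017-18292316 on the plus strand.
Hspe1: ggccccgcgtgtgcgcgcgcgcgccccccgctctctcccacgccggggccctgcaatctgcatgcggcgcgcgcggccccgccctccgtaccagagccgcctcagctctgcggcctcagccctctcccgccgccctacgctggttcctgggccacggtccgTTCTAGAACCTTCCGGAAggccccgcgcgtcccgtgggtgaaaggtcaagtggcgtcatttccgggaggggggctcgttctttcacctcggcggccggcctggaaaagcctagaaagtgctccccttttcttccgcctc
Chordc1: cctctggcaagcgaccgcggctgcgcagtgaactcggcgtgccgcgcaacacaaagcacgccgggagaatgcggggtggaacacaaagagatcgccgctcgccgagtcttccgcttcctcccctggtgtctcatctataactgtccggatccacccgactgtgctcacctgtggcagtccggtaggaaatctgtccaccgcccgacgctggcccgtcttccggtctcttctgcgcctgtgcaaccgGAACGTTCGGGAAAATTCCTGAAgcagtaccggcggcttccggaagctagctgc
The Hspe1 run has 4 units in 18 bases and lies at -89 to -72 from the Hspe1 start, at 55088059 to 55088076. Read on the other strand, the same 18 bases lie at -144 to -127 from an Hspd1 start. The Chordc1 run has 5 units and spans the start itself. The runs of the other members are given to compare their letters; that of Hspd1 is the Hspe1 run read on the other strand, and those of Hsph1 and Dnajb6, both on chromosome 5, have 3 units.
Hspd1: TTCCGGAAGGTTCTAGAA
Hsph1: TTCTGGAAAGTTC
Dnajb6: GAATCTTCCGGAA

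All 5 members with such a run had lower means under arsenite, with ratios from -0.78 to -0.13 and a median of -0.52 in the authors' deposited table. With both groups scaled to the same total Dnajb6 lay at 0.03. Hspd1, which held that median, lay at -0.36 under the same scaling and at -0.29 under quantile normalization. Under quantile normalization the 5 lay between -0.66 (Hspe1) and -0.02 (Dnajb6). Of the 13 members with only the shorter form 7 were below 0 (median -0.06), and of the 38 with neither 26 were below 0 (median -0.13), in the authors' deposited table. Dnajb1, named above as an HSF1 target, was among the 38, and Bag3, also named as a target, was among the 13. The search took exact letters in a short window, so these groups do not separate HSF1 targets from other genes. A match of letters is not a measured binding site, 2 of the 5 genes share 1 promoter and belong to the mitochondrial class, and 15 members, among them Hspa8, Hsp90aa1 and Cryab, had no window in the table used. The promoter windows of Hspa1a and Hspa1b are identical at 296 of 300 positions (98.7%), and each holds only the shorter form.

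**Figure D3:**
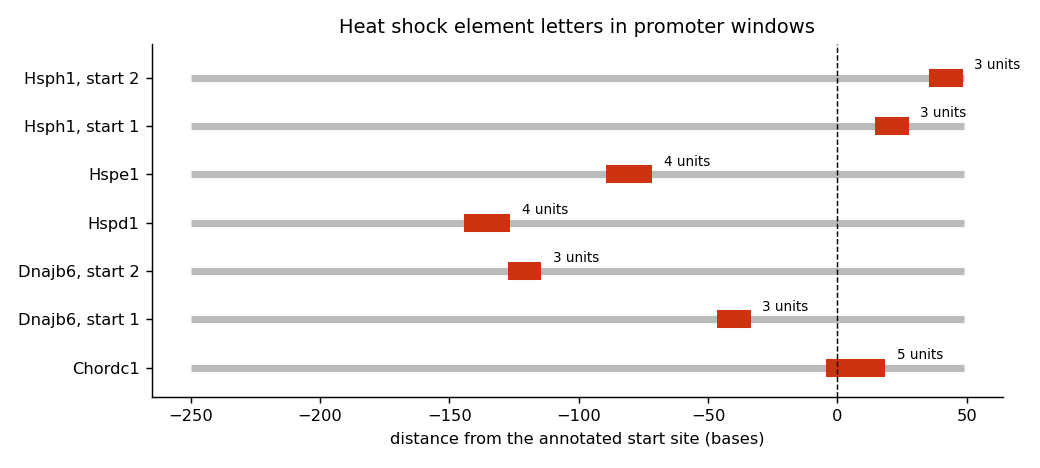
Position of runs of at least 3 heat shock element units (red) in the RefSeq promoter windows (grey), as distance in bases from the annotated start site (dashed line), for each start site whose window holds one. The shared run of Hspd1 and Hspe1 lies upstream of the Hspe1 start and of the Hspd1 start shown. It falls inside the RefSeq span of Hspd1, which reaches 55088243. Both Hsph1 rows show the same run, at 15 to 27 or 36 to 48 bases after the start, depending on the annotated start.

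The chaperones of the endoplasmic reticulum were level as a class. Of 12 genes 6 were below 0, and in the authors' deposited table the median log2 ratio was -0.01 (0.03, 0.05 and 0.15 under the other 3 scalings), and all lay between -0.28 and 0.15. Relative to all genes the median was 0.022 as deposited and 0.023 with both groups scaled to the same total. Dnajb9, which holds the stress sensor IRE1 in check and is induced by unfolded proteins, had the lowest ratio at 828 and 684. Dnajc3, known as p58IPK, a co-chaperone of the lumenal HSP70, had the highest mean at 1142 and 1102. Dnajc1 had the highest ratio at 370 and 412. Among the 260 genes that the deposited ontology terms place in this compartment 53.1% were below 0, with a median of -0.03 in the authors' deposited table.

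J proteins of the nucleus and the ribosome lay slightly above 0, with 1 of 5 below and a median of 0.03 in the authors' deposited table. Dnajc17, a splicing-associated protein, had the highest ratio at 41.7 and 53.7, and Dnajc21, which recycles factors of ribosome maturation, the lowest at 561 and 499.5. Dnajc5, the cysteine string protein that guards vesicle fusion, had 991 and 873, and Dnajc13, which sorts cargo on endosomes, 524 and 514. Dnajc22 had the lowest ratio of all members, 4.01-fold lower at 18.2 and 4.55, but its log2 ratio was -1.88 in the authors' deposited table and -1.28 with a constant of 5 added to each mean, and its level per kilobase ranked at percentile 9.7 of all genes, where few reads decide a mean. The others outside these classes were Dnajc24, Dnajc27, a J protein with a small GTPase domain, at 212 and 179, and Hspb11, a part of the intraflagellar transport complex, at 44.9 and 40.9.

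The small heat shock proteins had the highest median of the classes. Hspb7, a chaperone of cardiac and skeletal muscle, had means of 86.5 under water and 320 under arsenite, 3.70-fold higher, the widest gap of any member at a mean above 20. It lies on chromosome 4 (141420779 to 141425310, GRCm38), and its PPEE was 0.973 in the authors' deposited table. Cryab, alpha B-crystallin, which protects desmin and actin filaments, had 817 and 1196, 1.46-fold higher. Hspb1, the actin-linked HSP27, had 613 and 695 and Hspb6, a phosphoprotein best known in smooth muscle, 573 and 693. Hspb8, the partner of BAG3, went the other way with 2109 and 1492, 1.41-fold lower.

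In all, 2 of 7 were below 0 and the median was 0.18 in the authors' deposited table; it stayed above 0 in each other scaling and after removal of the length trend, between 0.24 and 0.37. Cryab and Hspb2 are neighbours on chromosome 9, and the RefSeq span of Cryab contains that of Hspb2. Hspb2 had means of 50.2 and 43.3, so per kilobase Cryab was 11.9 times as abundant under water and 20.2 times under arsenite. An annotated pseudogene, Hsp25-ps1, shares 48.8% of the 50-base stretches of Hspb1.

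Several of these genes are abundant in muscle, and muscle transcripts were present in both groups. Skeletal muscle markers (13 of 15 measured) made up 3.12% of all summed means under water and 2.68% under arsenite. In the deposited scaling 11 of the 13 had lower means under arsenite, among them Acta1 at 28194 and 19956 and Ckm at 25458 and 21293, and the exceptions were Mb, myoglobin, at 126 and 280, and Myh1. Smooth muscle and pericyte markers were split, 4 of 9 below 0, with Acta2 at 205 and 464 and Myh11 at 196 and 177. None of these markers was called, and their part in the values of Hspb7 and Cryab was not tested.

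**Figure D4:**
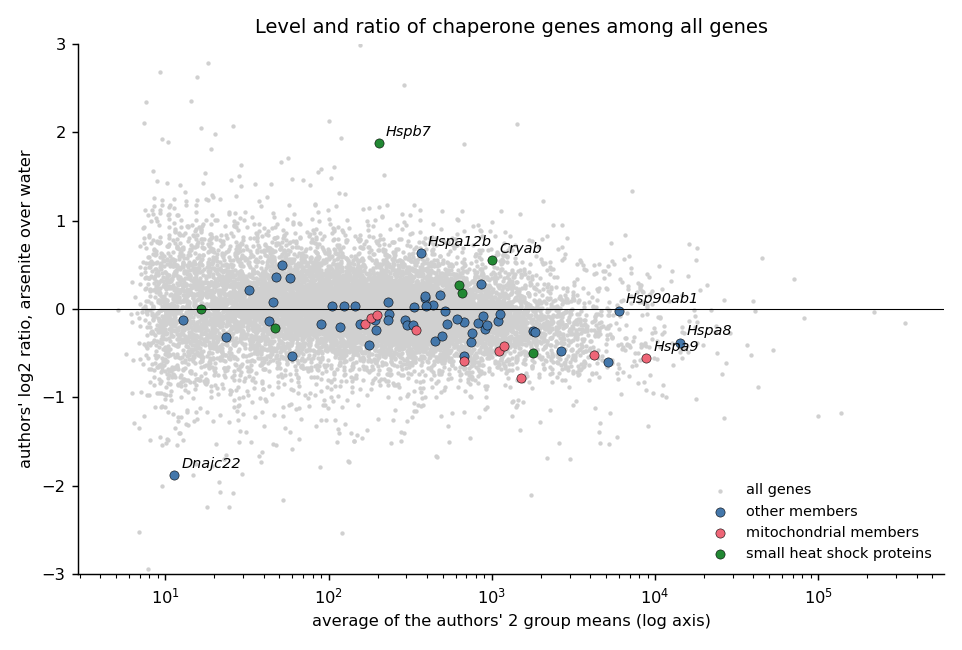
Log2 ratio of arsenite over water (vertical axis) against the average of both group means (horizontal, log axis) for all genes (grey) and the 71 members (colours); 4 genes with an absolute ratio above 3 fall outside the plot. Members with high levels lie mostly below 0 in the deposited scaling, as do abundant genes in general, and Hspb7 and Dnajc22 stand at the edges.

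Ratios of members differed with level. Of the 15 members with an average mean of at least 1000, 14 were below 0 with a median of -0.42, and of the 56 others 35 were below 0 with a median of -0.13, in the authors' deposited table. Cryab was the exception among the abundant ones. The abundant members include Hspe1, Hspd1, Hspa9, Dnaja3 and Dnajc15, so this split overlaps with the mitochondrial class described above. Over all genes the same split gave 70.5% below 0 of 1457 genes and 52.5% of the rest. Under quantile normalization that difference over all genes was nearly gone, with 746 of 1457 and 6010 of 12033 below 0, while 12 of the 15 abundant members were below 0, with a median of -0.28. Spearman's rho of ratio with level was -0.335 over the 71 members and -0.158 over all genes, and with gene length 0.003 and 0.208; members share libraries and scaling and are not independent. Together the members took 0.932% of all summed means under water and 0.842% under arsenite.

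Other chaperone genes gave a like picture. Of a list of 56, 54 were measured, none was called, and 42 were below 0, with a median of -0.20 in the authors' deposited table (-0.04 with both groups scaled to the same total). The ring-shaped chaperonin of the cytosol, which folds actin and tubulin, had 8 of 8 genes below 0 (7 of 8 under quantile normalization or with both groups scaled to the same total). Its subunit Cct5 had means of 1493 and 1186, its PPEE in the authors' deposited table was 0.07, just past the bound for a call, and Tcp1 had 2362 and 1840. Prefoldin, which hands clients to that chaperonin, had 5 of 5 below 0, with Pfdn5 at 899.6 and 789, and Pfdn4 at 111 and 96.3.

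Further HSP90 cofactors had 10 of 12 below 0 (7 of 12 with both groups scaled to the same total), with Ahsa1, the activator of its ATPase, at 814 and 596 and Cdc37l1 at 554 and 448. BAG proteins and exchange factors were split, 5 of 9 below 0, with Hspbp1 at 164 and 119.5 and Bag4 at 424 and 537. Mitochondrial proteases, unfoldases and an HSP90 relative had 6 of 6 below 0 (4 of 6 with both groups scaled to the same total), with Clpp at 542 and 436 and Afg3l2 at 1359 and 975. Folding genes of the endoplasmic reticulum had 4 of 8 below 0 (2 of 8 under quantile normalization or with both groups scaled to the same total), with Canx at 2468 and 2084 and Pdia4 at 271 and 375. Hsf4, a further heat shock factor, had 43.4 and 25.1, Hsbp1, which binds HSF1, 1238 and 1091, and Gak, a J protein of clathrin uncoating, 593 and 618.

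**Figure D5:**
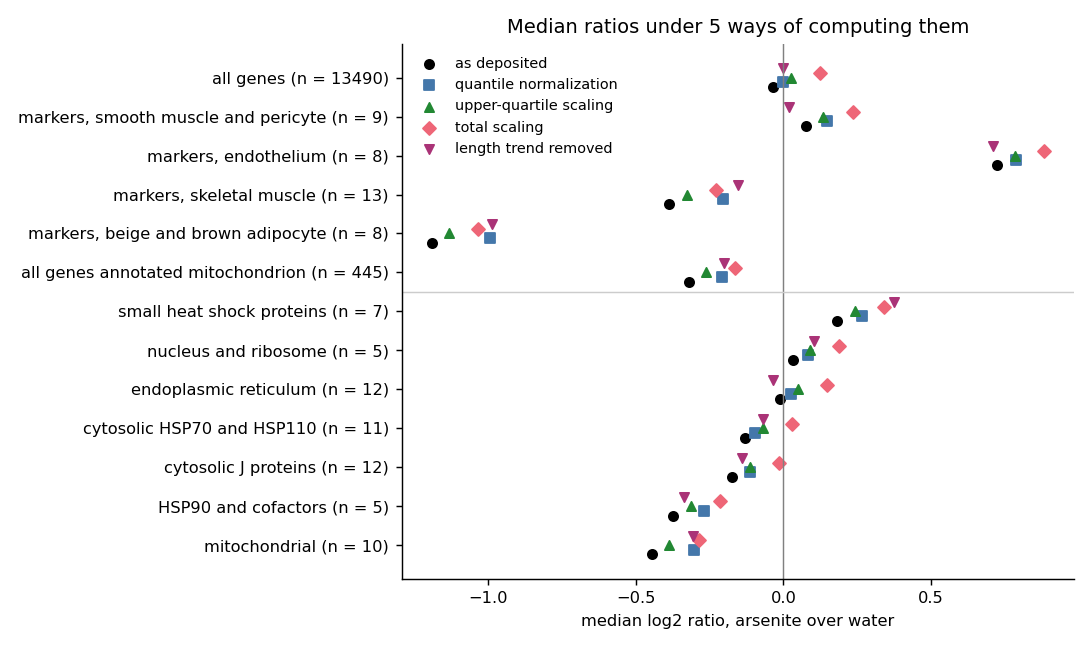
Median log2 ratio (horizontal axis) of the main chaperone classes, marker lists and all genes as deposited, under 3 other scalings of the group means and after removal of the trend on gene length. The mitochondrial and HSP90 classes stay below 0 and the small heat shock proteins above 0 in all 5, while the cytosolic HSP70 and HSP110 class crosses 0 when both groups are scaled to the same total and the endoplasmic reticulum class does so under all 3 other scalings. Relative to all genes, the HSP70 and HSP110 median was -0.096 as deposited and -0.095 at the same total. That of the endoplasmic reticulum was 0.022 and 0.023.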

How the data were processed

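Per the labels' protocols, inguinal fat was frozen, RNA was extracted with a lipid tissue kit, and reads were aligned to GRCm38 to give 20000000 mapped reads per sample, which is all that is known of depth. The submitters' processing notes list RSEM, HISAT and Bowtie2 but neither their versions nor what each did. The authors deposited a signal per gene and group, the mean over its 3 mice of a count-like abundance, summing to 8608581 for water and 7716846 for arsenite. Control in the headers was taken to mean water, and treatment arsenite. For each gene the authors deposited, per the file headers, the log2 of treatment over control, which equals that of the means after 0.574 is added to each, and a PPEE between 0 and 1, in EBSeq the posterior probability of equal expression and not a p-value. For the tool behind it and the scaling of libraries, nothing is given in the sources used here.

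No value per mouse was used here, so no test, SD or left-out mouse could be computed, and a call is the authors' PPEE of at most 0.05. The members, the compartments and the lists were chosen with earlier results of these data known. Named were 14 sentinel genes, members with an absolute log2 ratio of at least 0.5 at a mean of at least 20, and per compartment the highest and lowest ratio and the highest mean, 34 in all; Hspa4, Hspa4l, Hspa2, Hspa12a, Hspb2, Hspb6, Fkbp4, Stip1, Dnaja3, Dnajc15, Dnajc19, Dnajc24 and Dnajb6, and the markers, were added after their values were seen. Of the other chaperone list, the 2 of smallest PPEE per group were named, apart from a gene that is not reported here. Levels per kilobase are means divided by the deposited gene length. Shared sequence is the share of 50-base stretches of a gene's GENCODE M21 transcripts found in other genes. All 71 members matched RefSeq (GRCm38.p6) by identifier. Alternatives were quantile, upper-quartile and total scaling, added constants of 0.1 and 5, an average mean of at least 50, removal of the length trend by a lowess of span 0.3, and PPEE bounds of 0.01 and 0.1; leaving out genes of shared sequence and a mitochondrial class from ontology terms were chosen after seeing the data. The ratio, quantile and length steps were run on shuffled ratios of these genes with a planted shift, and only the length step had a set limit to meet. The motif and shared-sequence searches were not tested in this way. The work used Python 3.11.15 with matplotlib 3.10.9, statsmodels 0.14.6, scipy 1.17.1, pandas 2.3.3 and numpy 2.4.6.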

Additional observations from a re-analysis of the deposited data

How the results depend on the processing

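No member was called under any PPEE bound tried (0.01, 0.05 or 0.1). At 0.05 only 0.734% of all genes were called, and the shares at 0.01 and 0.1 were not computed. With both groups scaled to the same total, the members' median log2 ratio moved from -0.13 to 0.024, and medians by class became 0.028 (cytosolic HSP70 and HSP110), -0.22 (HSP90), 0.34 (small heat shock proteins), -0.29 (mitochondrial), -0.015 (cytosolic J proteins), 0.15 (endoplasmic reticulum), 0.19 (nucleus and ribosome), 0.053 (vesicles), 0.032 (regulators) and -0.045 (others). Counts below 0 then were 3 of 5 for HSP90, 3 of 12 for the endoplasmic reticulum, 1 of 2 for vesicles and 1 of 3 for regulators. Over all genes the share below 0 was then 33.8%, and the median 0.12. Under quantile normalization the medians were -0.27 (HSP90), -0.30 (mitochondrial) and 0.027 (endoplasmic reticulum; 0.048 under upper-quartile scaling), and 1 of 2 vesicle genes was below 0 under each of these. After removal of the length trend the medians were 0.37 (small heat shock proteins) and -0.31 (mitochondrial). At an average mean of at least 50, 1 of 5 small heat shock proteins and 2 of 2 others were below 0. Of the 12 members with an absolute log2 ratio of at least 0.5, 8 were below 0, by class 1 of 3 (HSP70), 2 of 2 (HSP90), 0 of 2 (small heat shock proteins), 4 of 4 (mitochondrial) and 1 of 1 (others). Scaling to the same total multiplies the means of a group by 1 factor, which by construction shifts the ratios the same way, by nearly the same amount except at low means; other causes were not tested. The remaining 136 comparisons of these counts and medians moved by at most 0.1 in a median or 1.5 times in a count, including those without the 6 genes of shared sequence. No paired analysis was possible because the table holds 1 mean per group, and leaving out a mouse and a count test were not run for the same reason. Means of low genes rest on few reads, and the precision of all values is unknown without values per mouse.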
